A study of Mus musculus with 2 samples.

Results

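The core circadian clock was read in primary mouse osteoblast cultures at 2 days of differentiation, through 10 genes that form its transcriptional loop: Arntl (also written Bmal1), Clock, Per1, Per2, Per3, Cry1, Cry2, Nr1d1, Nr1d2 and Dbp. The genes were chosen by name. They were represented by 23 of the 45101 probe sets on the array, and by 10 of the 18193 genes to which a single symbol could be given. The cells were CD11b-negative calvarial cells of newborn mice. CD11b is a surface protein of myeloid cells, and its gene, Itgam, lay near background on both arrays, at signals of 14.6 and 35.4. Other myeloid markers did not, among them Lyz2 (2649 at day 5 and 5984 at day 12) and Csf1r (811.6 and 1778). Low Itgam thus does not mean that myeloid transcripts were absent, and these markers are counted below. All cultures received ascorbic acid (50 µg/ml) and β-glycerophosphate (10 mM), without further treatment, for 5 days in one group and 12 days in the other. Each day was read on 1 array only, which leaves no replicate error, test or p-value, and every difference below is between these 2 arrays. The strain, the number of animals, the clock time of harvest and the time since the last medium change were not given in the sources used here. A clock gene can differ between cultures because its mean level differs or because the cells were taken at another phase of the cycle, and with 1 array per day these cannot be told apart.

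In mammalian cells ARNTL and CLOCK bind as a dimer to E-boxes in DNA and switch on the Per and Cry genes, whose products return to the nucleus and repress that dimer. A second loop runs through the nuclear receptors NR1D1 and NR1D2 (REV-ERB α and β), which repress Arntl, and the ROR receptors, which activate it from the same DNA element, the RORE. DBP and its relatives act through D-boxes, where NFIL3 opposes them. Osteoblasts carry this loop, and cultured cells lose a common phase unless a medium change or a hormone pulse sets it again.

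Promoters of some of these genes are shown first because they hold the elements that tie the loop together, and because the genes that carry them differed in their ratios (given below). The sequences are the 250 bases before a RefSeq transcription start in the build GRCm38.p6, written 5′ to 3′ on the strand of the gene. Ciart (chr3:95882229-95882478, minus strand), Per1 (chr11:69098699-69098948, plus strand) and Cry1 (chr10:85185055-85185304, minus strand) hold the E-box CACGTG, in capitals. Ciart holds it 3 times, and the Per1 window is that of the first of its 2 listed starts.
Ciart: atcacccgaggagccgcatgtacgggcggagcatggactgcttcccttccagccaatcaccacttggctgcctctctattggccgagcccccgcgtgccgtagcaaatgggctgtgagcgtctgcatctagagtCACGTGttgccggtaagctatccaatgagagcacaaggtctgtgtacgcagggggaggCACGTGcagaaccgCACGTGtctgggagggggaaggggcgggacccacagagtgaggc
Per1: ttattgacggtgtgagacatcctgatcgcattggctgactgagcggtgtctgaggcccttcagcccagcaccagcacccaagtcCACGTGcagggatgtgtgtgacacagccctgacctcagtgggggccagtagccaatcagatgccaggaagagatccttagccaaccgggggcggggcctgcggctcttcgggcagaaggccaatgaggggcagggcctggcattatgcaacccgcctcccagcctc
Cry1: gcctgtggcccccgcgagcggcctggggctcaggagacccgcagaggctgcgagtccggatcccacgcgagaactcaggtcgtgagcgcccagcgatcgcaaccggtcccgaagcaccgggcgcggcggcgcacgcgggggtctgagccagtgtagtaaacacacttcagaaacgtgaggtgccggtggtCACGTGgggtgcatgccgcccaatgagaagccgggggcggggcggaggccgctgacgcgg

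The Per3 promoter (chr4:151044666-151044915, minus strand) holds 2 copies of the D-box, searched as TTANGTAA. The Nfil3 promoter (chr13:52981040-52981289, minus strand) holds a RORE, searched as ANTAGGTCA, close to its end and on the other strand, so that it reads here as the reverse complement. For Arntl, 30 bases around the same element are given (chr7:113207529-113207558, plus strand), and lie just after its second listed start.
Per3: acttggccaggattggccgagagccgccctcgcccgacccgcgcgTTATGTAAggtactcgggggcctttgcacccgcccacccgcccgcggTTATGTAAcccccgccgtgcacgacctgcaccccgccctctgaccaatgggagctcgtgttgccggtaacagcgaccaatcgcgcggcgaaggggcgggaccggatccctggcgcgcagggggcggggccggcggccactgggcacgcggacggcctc
Nfil3: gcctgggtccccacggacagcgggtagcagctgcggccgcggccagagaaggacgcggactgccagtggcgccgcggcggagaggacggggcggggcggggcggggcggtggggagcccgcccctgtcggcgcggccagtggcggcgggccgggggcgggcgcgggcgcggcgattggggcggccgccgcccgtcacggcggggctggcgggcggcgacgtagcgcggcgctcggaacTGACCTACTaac
Arntl: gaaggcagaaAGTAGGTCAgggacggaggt

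Windows from 250 bases before to 50 bases after the start were searched on both strands. Of the 27025 genes with such a window, 8.09% held the E-box, 5.44% its variant CACGTT, 2.72% the D-box, 18.1% the RORE half-site AGGTCA and 0.707% the RORE, which contains the half-site. A promoter window was found for 9 of the 10 clock genes, all but Per2. Bhlhe40, among the other loop genes, had none and was not searched. The E-box was present in 2 of them (Per1, Cry1), the variant in 3 (Cry1, Cry2, Nr1d1), the D-box in 1 (Per3), the half-site in 4 (Arntl, Clock, Per1, Nr1d2) and the RORE in 1 (Arntl). Among the other loop genes with a window it was found in Nfil3. A match is a run of letters and was not tested for binding.

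**Figure D1:**
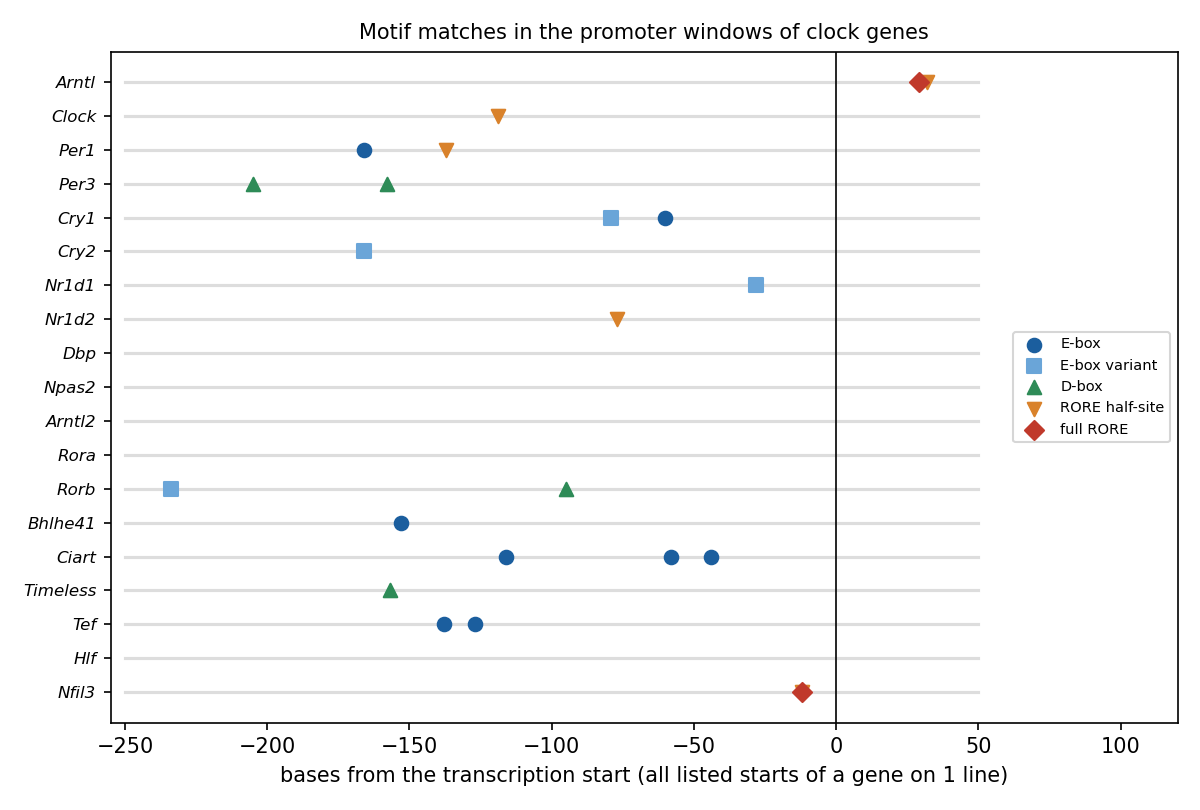
Motif matches by distance in bases from the transcription start (x axis) for each clock gene and other loop gene with a promoter window; grey lines are the windows and each symbol is the first base of 1 match. Ciart has 3 E-boxes, Per3 has 2 D-boxes, and the RORE (drawn as full RORE) of Arntl lies after the start.

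None of the 10 core clock genes differed by 2-fold between day 5 and day 12. Their log2 ratios of day 12 over day 5 ran from -0.32 (Nr1d2) to 0.45 (Cry2), with 7 above 0 and 3 below 0 and a median of 0.16. Across the 10479 genes with a signal at or above the floor on at least 1 array, 3.56% were higher at day 12 by 2-fold or more and 1.73% lower by 2-fold or more, and the median log2 ratio was -0.05. The floor is an array's 60th percentile of signal, 46.6 for the day 5 array and 44.8 for the day 12 array, and lower values were raised to it. Per2 and Nr1d1 had 1 day below the floor and the other just above it, so their ratios are bounds near 0. These genes could not have passed 2-fold, yet they are included in the counts and in the median. None of the 10 genes passed even 1.5-fold, which 15.0% of all measured genes did in either direction. A result of 0 among 10 genes is therefore close to what the background gives, and 68.4% of all measured genes lay in the same range of ratios.

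The positive arm of the loop consists of Arntl and Clock. Arntl, which supplies the rhythmic subunit of the activating dimer, had signals of 101.0 and 127.6 (log2 ratio 0.34, 1.26-fold higher), where here and below the day 5 value comes first. Its second probe set lay below the floor on both days. Clock, its partner, had signals of 458.5 and 388.8 in its brightest probe set, a log2 ratio of -0.24. Clock was the gene with the most repeat measurements, and 2 further probe sets gave log2 ratios of 0.06 (227.0 and 237.0) and -0.47 (182.7 and 131.8). The 3 readings thus fell on both sides of 0, and no direction can be given for Clock.

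The negative arm consists of the Period and Cryptochrome genes. Per1, the member most quickly induced by hormones and serum, had signals of 89.7 and 102.0 (log2 ratio 0.18). Per3 had signals of 129.4 and 156.9 in the 1 measured probe set of its 6 (0.28). Per2 had signals of 47.3 and 41.8, on either side of the floor, so its log2 ratio of -0.08 is a bound, and its other 2 probe sets lay below the floor on both days. By these probe sets Per1 and Per3 were at most 1.21-fold above their day 5 value, and Per2 lay too close to the floor to be read. Cry1, the stronger of the repressors of the dimer, had signals of 69.0 and 75.6 (0.13). Cry2, the other cryptochrome, had signals of 79.4 and 108.6, which at 1.37-fold (log2 ratio 0.45) was the largest ratio among the 10 genes by brightest probe set. A log2 ratio that high or higher was nonetheless common, since 89.9% of measured genes lay below Cry2.

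The REV-ERB receptors and DBP are direct outputs of the dimer and follow its activity closely. Nr1d1 had signals of 46.1 and 50.2, the first just under the floor, so its log2 ratio of 0.11 is a bound. Nr1d1 overlaps the end of Thra on the opposite strand, and the share of that gene in its signal was not tested. Nr1d2 had signals of 1216 and 977.3 (log2 ratio -0.32, 1.24-fold lower), the largest ratio of the 10 below 0, and its second probe set was below the floor. Besides Clock, Dbp was the only one of the 10 with more than 1 measured probe set, and here both lay above 0. Its brightest probe set had signals of 416.1 and 537.3 (0.37, 1.29-fold higher) and the other 176.1 and 256.0 (0.54, 1.45-fold higher). The receptors and Dbp, all E-box outputs, thus lay on different sides of 0, with Nr1d2 lower at day 12 and Dbp higher.

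**Figure D2:**
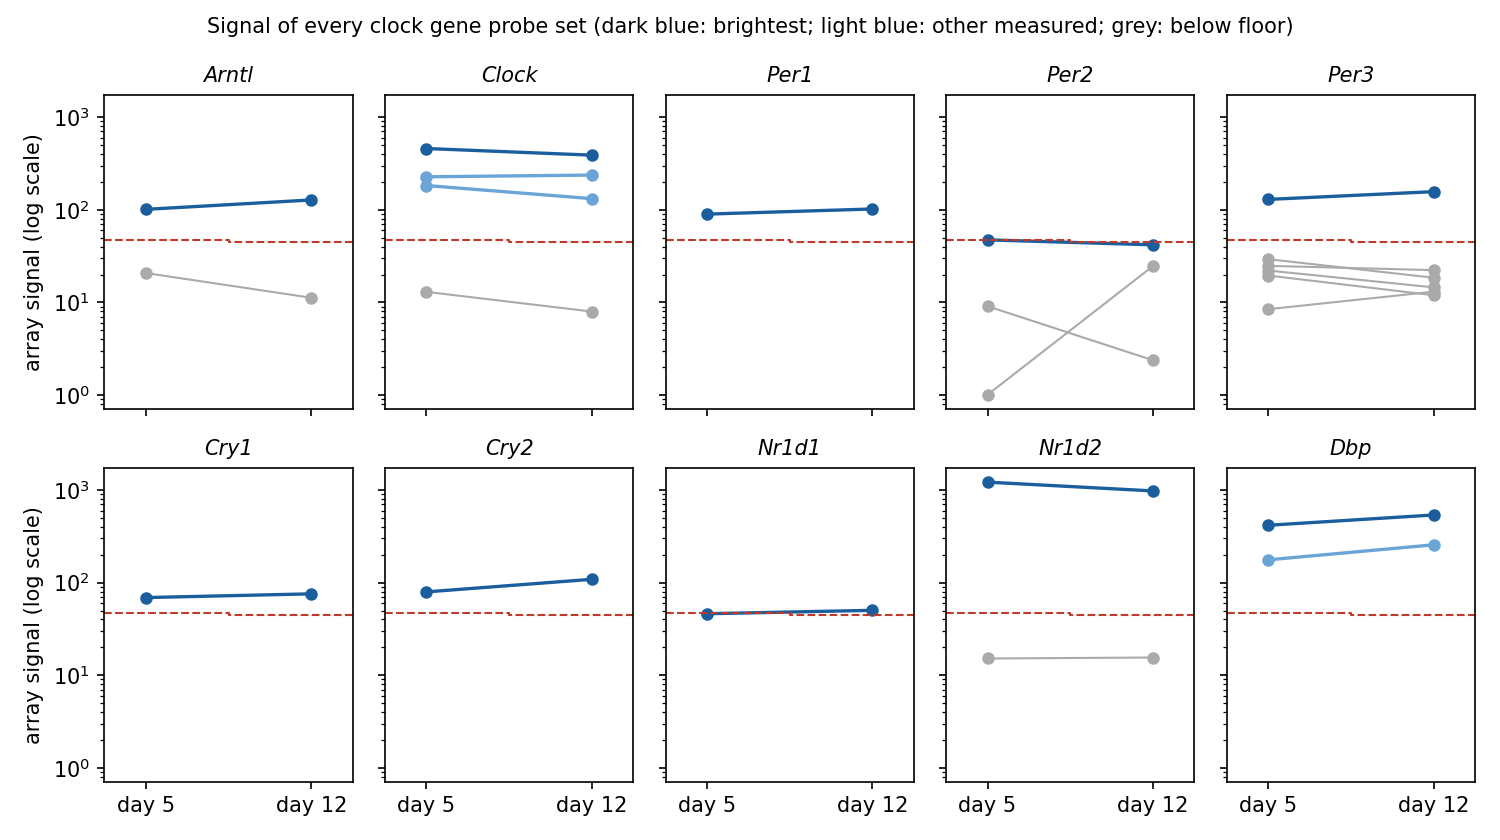
Array signal (log scale) at day 5 and day 12 for each of the 23 probe sets of the 10 core clock genes, 1 panel per gene and 1 line per probe set; the dashed line is the floor of each array. Of the 23 probe sets, 13 reach the floor on at least 1 day, and the lines of these are nearly flat.

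How much weight a ratio of this size can bear depends on the signal. Where a gene was read by several measured probe sets (4446 genes), its brightest pair disagreed by a median of 0.17 in log2 ratio. This value covers probe error but no difference between cultures. It spans genes of every brightness and includes probe sets with 1 day below the floor, so it is only a rough guide for dim genes. The log2 ratio of Cry1 was smaller than 0.17 and that of Per1 hardly larger, while those of Nr1d1 and Per2 are bounds and cannot be set against it. Of the 10 genes, 6 (Arntl, Per1, Per2, Cry1, Cry2 and Nr1d1) fell in the dimmest of 4 equal groups of measured genes, in which the quartiles of the log2 ratio were -0.36 and 0.24 and 7.21% of genes were past 2-fold. Nr1d2 was in the brightest group, where the quartiles were -0.16 and 0.18, so that its -0.32 lay below the lower quartile of genes as bright. The 10 probe sets below the floor on both days had signals between 1.01 and 29.3 and were not used. Signals were not compared between genes, since each probe set has its own brightness.

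Of 12 other genes that act in the same loops, 11 had a probe set, 7 were measured, and 5 of the 7 were at least 2-fold higher at day 12 (Npas2, Rora, Bhlhe40, Ciart and Nfil3), with none 2-fold lower and a median log2 ratio of 1.24, where 3.56% of all measured genes were that much higher. Ciart was measured at day 12 only, and of the 6 genes at or above the floor on both days 4 were at least 2-fold higher. The difference from the 10 core genes was not tested, and the 12 were chosen by name with earlier results of these arrays known.

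Bhlhe40, a helix-loop-helix repressor that competes for E-boxes, had signals of 312.0 and 1835 (log2 ratio 2.56, 5.88-fold higher). Only 1 probe set stood for it, and 99.5% of measured genes had a lower ratio. Ciart, another repressor of the ARNTL and CLOCK dimer, had signals of 26.5, below the floor, and 110.0, and was at least 2.36-fold higher. Ciart carries the 3 E-boxes printed above, while Per1 and Cry1, which carry 1 each, were 1.14-fold and 1.10-fold higher. These promoters were picked after the values were seen, and no link between the number of E-boxes and the ratio was tested. Tef, a DBP relative whose windows also held the E-box, had signals of 354.6 and 361.9 (log2 ratio 0.03).

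Rora, the receptor that activates Arntl from the RORE, was read by more probe sets than any other of these genes. Its brightest probe set had signals of 187.3 and 583.6 (log2 ratio 1.64, 3.12-fold higher), and all 6 measured probe sets were higher at day 12. The 5 at or above the floor on both days had log2 ratios from 1.32 to 1.99, and the sixth, below it at day 5, a lower bound of 0.80. Npas2, a paralog of Clock that can take its place beside ARNTL, had signals of 54.0 and 143.0 (2.65-fold higher). Nfil3, which opposes DBP at D-boxes, had signals of 229.1 and 534.3 (2.33-fold higher) in its only probe set. The gene on which ROR and REV-ERB proteins converge, Arntl, stood at 1.26-fold, and Per3, whose promoter holds 2 D-boxes, at 1.21-fold.

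The remaining loop genes were Timeless (signals of 208.4 and 191.4, log2 ratio -0.12, and -0.66 in its other probe set) and those below the floor on both days, which were Arntl2, Rorb, Bhlhe41 and Hlf.

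**Figure D3:**
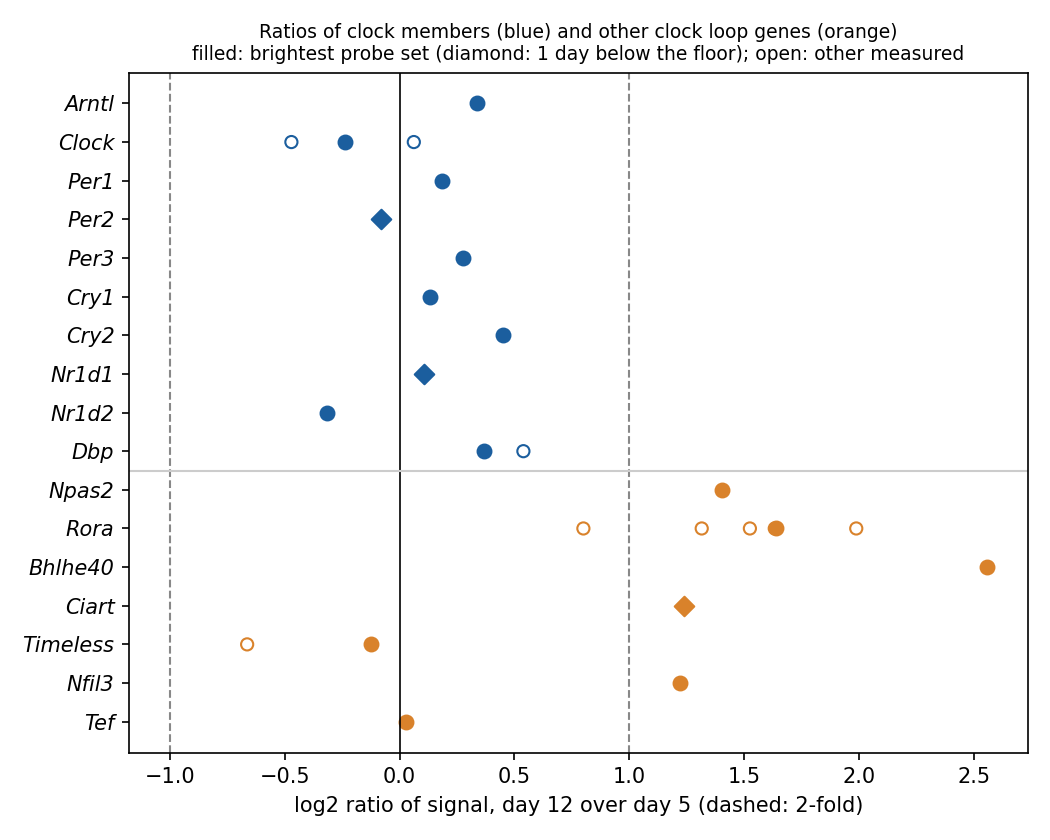
Log2 ratio of signal at day 12 over day 5 (x axis) for each measured probe set of the 10 core clock genes (blue) and of the 7 other measured loop genes (orange). All blue points lie between -0.47 and 0.54, inside the dashed 2-fold lines, while the brightest probe sets of Npas2, Rora, Bhlhe40, Ciart and Nfil3 lie above 1.

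**Figure D4:**
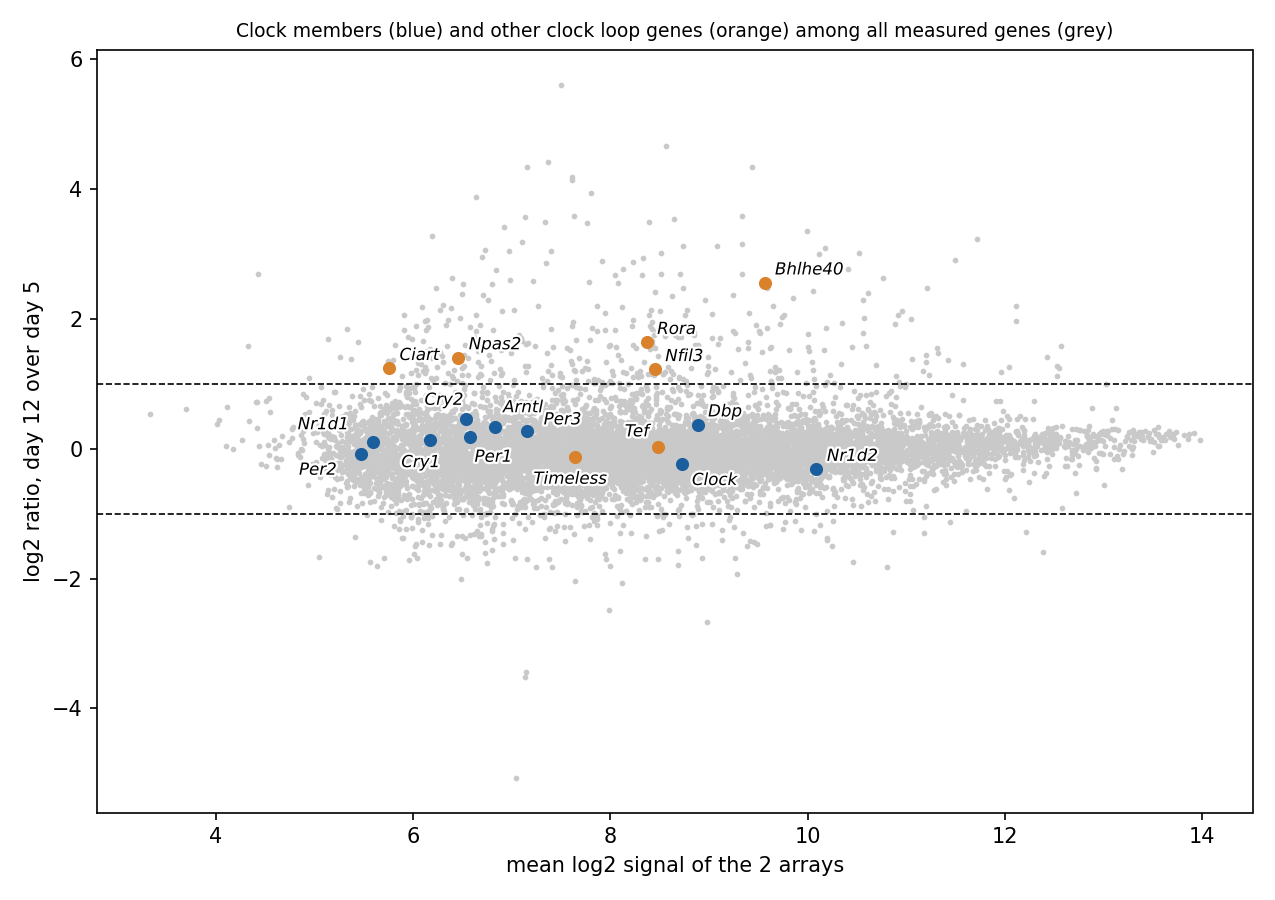
Log2 ratio of day 12 over day 5 (y axis) against mean log2 signal of both arrays (x axis) for all 10479 measured genes (grey), the core clock genes (blue) and the other measured loop genes (orange). The core genes lie within the main band of genes, and Bhlhe40 at 2.56 lies far above it.

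Sorted by the element listed as driving them, genes of both arms were mixed. The lists do not follow the promoter matches above, since the windows of Npas2 and Cry1, both listed under the RORE, held no RORE or half-site. Of 11 measured genes of a list driven through E-boxes and D-boxes, 6 of them core members, Ciart and Bhlhe40 were at least 2-fold higher and none was 2-fold lower, with a median log2 ratio of 0.12. Wee1, a cell cycle kinase gene of the list, had a log2 ratio of -0.39. Of 5 measured genes listed as driven through the RORE, Npas2 and Nfil3 were at least 2-fold higher and Arntl, Clock and Cry1 were not (median 0.34). Over all measured genes 3.56% were that much higher and 1.73% that much lower. Ciart, Bhlhe40, Npas2 and Nfil3 are the same genes as counted above among the other loop genes, so these counts add no further genes.

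Enzymes that set the stability of the PER and CRY proteins differed by less than 2-fold in their brightest probe sets. Of 16 listed kinase, ligase, protease and phosphatase genes 13 were measured, none was past 2-fold, and the median log2 ratio was 0.04. With 3.56% of all measured genes higher and 1.73% lower by that much, a count of 0 is close to the background. Csnk1e, a PER kinase, had a log2 ratio of 0.02, Csnk1a1 0.09, Csnk2a1 0.27, Csnk2a2 -0.22 and Gsk3b 0.04. For Gsk3b the dimmest measured probe set gave -1.03 (98.1 and 48.0). The ubiquitin ligase genes Btrc and Fbxw11, which mark PER for breakdown, had -0.14 (a bound) and -0.01, and the deubiquitinase gene Usp2 had 0.12. The AMPK genes Prkaa1 and Prkaa2, whose product marks CRY for breakdown, had 0.23 and 0.50, and the phosphatase genes Ppp1cb and Ppp2ca 0.16 and -0.04. Fbxl21, a CRY ligase gene, was below the floor on both days.

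Csnk1d, the closest relative of Csnk1e, was read in conflicting ways by its 5 measured probe sets. The brightest had signals of 1799 and 1221 (log2 ratio -0.56), and 2 others gave -0.71 and -0.70. The remaining 2 were at least 2-fold higher at day 12, with signals of 289.4 and 591.5 (1.03) and of 174.5 and 420.0 (1.27). No direction can be given for the gene as a whole, and which transcripts the probe sets read was not tested.

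Of 12 measured coregulators of the clock, 1 was past 2-fold, which among so few genes is close to the 3.56% of all measured genes that were higher. Nampt, the enzyme that recycles NAD and so feeds the deacetylase SIRT1, had signals of 324.0 and 1142 (log2 ratio 1.82, 3.52-fold higher), with 1.54 and a bound of 0.30 in its other probe sets. Sirt1 itself had -0.08, Hdac3, the deacetylase that REV-ERB proteins recruit, -0.44 and the histone demethylase gene Kdm5a 0.36. The histone methyltransferase gene Kmt2a had -0.46, with 0.46 in its other probe set. Nampt was also the 1 gene past 2-fold among 17 measured genes that cycle in many tissues, whose median was 0.10, and this count too is near the share over all genes. In that list Cdkn1a, a cell cycle inhibitor gene, had a log2 ratio of 0.74, Cirbp, a cold-inducible RNA-binding protein gene, -0.88 and Lonrf3 a bound of 0.67.

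Per1 is also a direct target of glucocorticoids and of CREB, by which medium changes reset cultured cells. Per1 is itself a member of both lists that follow, as is Dusp1, so neither list is separate from the core genes. Of 12 measured glucocorticoid-induced genes, Mt1 (5.42-fold) and Mt2 (3.45-fold), metallothionein genes that metals also induce, were higher, Sgk1 was 2.37-fold lower, and the median log2 ratio was 0.14. No other gene of the list was past 2-fold, where 3.56% of all measured genes were at least 2-fold higher and 1.73% lower. Of the 12 genes, 9 lay above 0 and 3 below, the latter being Sgk1, Tsc22d3 and Errfi1. Fkbp5, a sensitive target, had 0.08, Tsc22d3 -0.56, with 0.28 in its dimmest measured probe set, and Errfi1 -0.84. Of 13 measured CREB- and serum-induced genes 1 was past 2-fold, Atf3, a stress factor gene that was below the floor at day 5 and at least 3.70-fold higher at day 12, and the median was 0.22. A count of 1 in 13 is close to the share over all genes given above. Nr4a1 had a log2 ratio of 0.86, Junb 0.75, Fos 0.66, Egr1 -0.38 and Egr2 -0.71, so the immediate early genes lay on both sides of 0.

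Other groups of genes also differed between the arrays, some in the same direction as these loop genes and some in the opposite one. Of 21 measured genes of hypoxia and glycolysis besides Bhlhe40, which is itself a known target of hypoxia-inducible factor, 20 were at least 2-fold higher at day 12, with a median log2 ratio of 2.70. Egln3, Car9 and Ankrd37 among the 20 were below the floor at day 5 and measured at day 12 only, so their ratios are lower bounds. Of 9 measured myeloid markers 8 were at least 2-fold higher, and the summed signal of all 10 listed went from 4368 to 10656. Lyz2, at 2649 and 5984, made up most of that sum. Of 5 measured osteoblast genes 3 (Sp7, Alpl and Ibsp) were at least 2-fold higher, and the collagen I genes Col1a1 and Col1a2 had log2 ratios of 0.63 and 0.21. Runx2, Bglap and Spp1, also listed, had no probe set named by 1 symbol and were not read. Of 6 chondrocyte markers 2 were at least 2-fold lower, of which Matn1 was below the floor at day 12, so its ratio is a bound. The summed signal of the 6 went from 22767 to 12335. None of 3 measured adipocyte markers was past 2-fold, which is close to those shares over all genes (summed signal 364.3 and 196.1). Of 2 measured muscle markers Acta1 was at least 2-fold lower, at signals of 235.0 and 72.8, which made up most of the list's sum of 297.0 and 124.4, Des had a bound of -0.13, and Myod1 and Myog were below the floor on both days. All 4 endothelial markers were below the floor on both days. No marker was at exactly 0. The part of these cell types and of hypoxia in the ratios of Bhlhe40, Rora, Npas2, Ciart, Nfil3 and Nampt was not tested, and fewer cells of a type and less RNA per cell cannot be told apart in such samples.

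**Figure D5:**
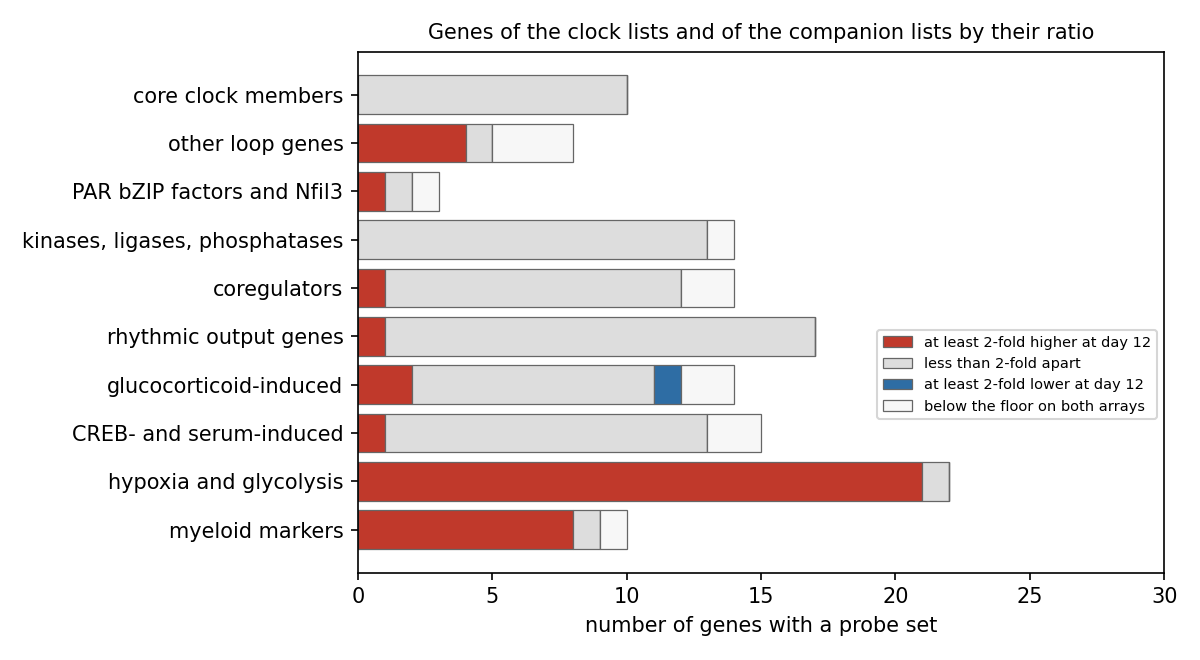
Number of genes (x axis) in each list that were at least 2-fold higher at day 12 (red), less than 2-fold apart (grey), at least 2-fold lower (blue) or below the floor on both arrays (white). The bar of the 10 core clock genes is all grey, and that of hypoxia and glycolysis, which includes Bhlhe40, is red for 21 of 22 genes.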

How the data were processed

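Biotin-labelled cRNA from total RNA of each culture was hybridised to 1 array, per the labels' protocols. GCOS 1.4 and MAS5 are the tools listed in the submitters' processing notes. The authors deposited signal intensity on a linear scale for 45101 probe sets. The mean after trimming 2% at each end was 200.0 on both arrays, so a change in total RNA per cell cannot be seen.

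Of 45037 probe sets other than controls, 34945 had 1 gene symbol in the platform annotation, 932 several and 9160 none; 34741 symbols were updated through the Entrez number in a GRCm38.p6 table, and only probe sets with 1 symbol were named. Each gene was read by its brightest probe set (mean log2 signal over both arrays). The 60th percentile of each array served as its floor, and 10479 genes reached it on at least 1 array. A ratio of 2-fold was the threshold, with no test, since each day had 1 array.

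The clock genes and all lists were chosen with earlier results of these data known. All 10 clock genes, all listed loop genes and enzymes, and, from the other lists, genes past 2-fold and up to 4 with the largest ratios were to be named. Sirt1, Fkbp5, Tsc22d3, Fos, Egr1, the motifs and the printed promoters were chosen after values were seen, and the hypoxia and cell type lists are given mainly by counts. Likeness of pattern was not computed, since over 2 arrays a pattern is 1 ratio. Alternatives were median centring, quantile normalisation, loess, a floor at the 50th or at the 75th percentile, a pseudocount of 16, the median of probe sets, omission of probe sets with the suffix _s_at, _x_at or _a_at, and a threshold of 1.5-fold or 3-fold. Scripts were tested on simulated data with large changes planted in bright genes only, so that test does not cover dim genes or small ratios. Python 3.11.15, numpy 2.4.6, pandas 2.3.3 and statsmodels 0.14.6 were used.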

Additional observations from a re-analysis of the deposited data

How the results depend on the processing

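The count of core clock genes past 2-fold was 0 in both directions under all 8 alternative settings and at 1.5-fold, and is 0 at 3-fold by construction. Without probe sets of the suffix _s_at, _x_at or _a_at 8 of the 10 genes were measured, since Arntl and Cry1 had no other measured probe set. Of 71 log2 ratios of single clock genes under the alternatives, 70 kept their sign; the exception was Per2, at 0.00069 after loess. With the 75th percentile floor 3 of the 10 genes remained measured (Clock, Nr1d2 and Dbp), and the median was -0.24, because fewer genes were measured. Under the same floor 3 other loop genes were at least 2-fold higher (Bhlhe40, Nfil3 and Rora) in place of 5, since Npas2 and Ciart were no longer measured; under the other 7 settings the count was 5. The alternatives for those loop genes were added after the data were seen. No paired analysis was possible because there was 1 array per day. The number of arrays limits every value, and Per2 and Nr1d1 lay too close to the floor for a ratio to be read.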
